A study of Mus musculus with 12 samples.

Results

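The genes described here are 10 transcription factor genes that mark fibroblasts and the embryonic mesenchyme from which they come: Prrx1, Prrx2, Tbx15, Osr1, Foxc2, Foxd1, Runx1, Runx2, Meox1 and Meox2. They were taken by symbol from a deposited table of 24207 genes, each symbol matched 1 row, and all 10 passed the filter on low counts that left 14520 tested genes. RNA had been sequenced from mouse embryonic fibroblasts of strain C57BL/6 in 12 libraries, 4 groups of 3. All cells contained FUW-OSKM and FUW-M2rtTA, lentiviral constructs through which doxycycline switches on Oct4, Sox2, Klf4 and cMyc (OSKM), the factors that can turn fibroblasts into pluripotent stem cells. The uninduced cells had no doxycycline and a scrambled hairpin. The induced cells had doxycycline for 7 days with a scrambled hairpin (the induced controls), a Trim28 hairpin, or Trim28 and Setdb1 hairpins together. All groups grew in stem cell medium over a layer of irradiated feeder fibroblasts, and nothing in the labels tells whether feeder cells were separated off before lysis. The comparisons ask how far the fibroblast factor set was lowered after 7 days of OSKM, and whether loss of Trim28, a corepressor brought to DNA by zinc finger proteins, or of Setdb1, a histone methyltransferase that acts with it, changed that.

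Lineage factors of this kind hold a cell to its identity by binding the control regions of many tissue genes at once. In mesenchyme, the homeobox genes Prrx1 and Prrx2 and the T-box gene Tbx15 pattern limb and skeletal connective tissue, Osr1 marks lateral plate and kidney mesenchyme, and the forkhead genes Foxc2 and Foxd1 mark paraxial mesenchyme and kidney stroma. Runx2 drives bone formation, Runx1 is best known from blood stem cells but is also read in fibroblasts, and Meox1 and Meox2 act in the somites. In reprogramming, the silencing of such fibroblast genes is one side of the change and the rise of epithelial and pluripotency genes the other.

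Each library held 11906701 to 19191649 counted reads, with the lowest total in replicate 2 of the induced controls, which also had the highest share of mitochondrial reads (2.37%, against 1.78% to 2.27% in the other libraries). Levels are given as CPM (counts per 1e6 counts, scaled with TMM factors), and 3 reads in 1 library correspond to 0.156 to 0.252 CPM before that scaling. The hairpin target Trim28 stood at 328 CPM in the induced controls, 58.5 with its own hairpin and 103 with both hairpins. Setdb1 stood at 81.3, 122 and 63.1 CPM in the same groups and at 60.7 ± 4.29 CPM in uninduced cells, where Trim28 stood at 249 CPM. With both hairpins there was thus less Setdb1 and more Trim28 than with the Trim28 hairpin alone, and Setdb1 was near its uninduced level. The 4 induced factors rose from uninduced cells and were lower with both hairpins than with the Trim28 hairpin: Pou5f1 (Oct4) stood at 19.5, 487, 578 and 367 CPM in uninduced cells, induced controls, Trim28 hairpin and both hairpins, and the log2 differences between the hairpin groups were -0.65 for Pou5f1, -0.78 for Sox2, -0.62 for Klf4 and -0.53 for Myc (adjusted p = 0.000621, 0.0044, 0.000287 and 0.00224). Fibroblast markers were read in every group: all 12 of a list that includes Col1a1, Thy1 and Pdgfra had reads, and their summed level was 45494 to 52026 CPM in uninduced cells, 26293 to 34855 in the induced controls, 25907 to 28046 with the Trim28 hairpin and 32492 to 35930 with both hairpins. In bulk RNA, fewer fibroblasts and less RNA of a gene per fibroblast cannot be told apart, and this holds for every fall below. Since separate cultures are not stated for the 3 libraries of a group, p-values measure the spread between these libraries, which may be technical.

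After 7 days of OSKM, 6 of the 10 factors fell (Prrx1, Prrx2, Osr1, Runx2, Foxc2 and Tbx15), 1 rose (Foxd1) and 3 did not pass the test (Runx1, Meox1 and Meox2). For comparison, 32.7% of all tested genes were called lower and 32.7% higher in the same fit (edgeR quasi-likelihood test, Benjamini-Hochberg adjusted p under 0.05). The median log2 change was -0.55 over the 10 factors and -0.02 over all tested genes. The largest of the 6 falls was that of Osr1, 2.52-fold, and every factor had reads in all 12 libraries.

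**Figure D1:**
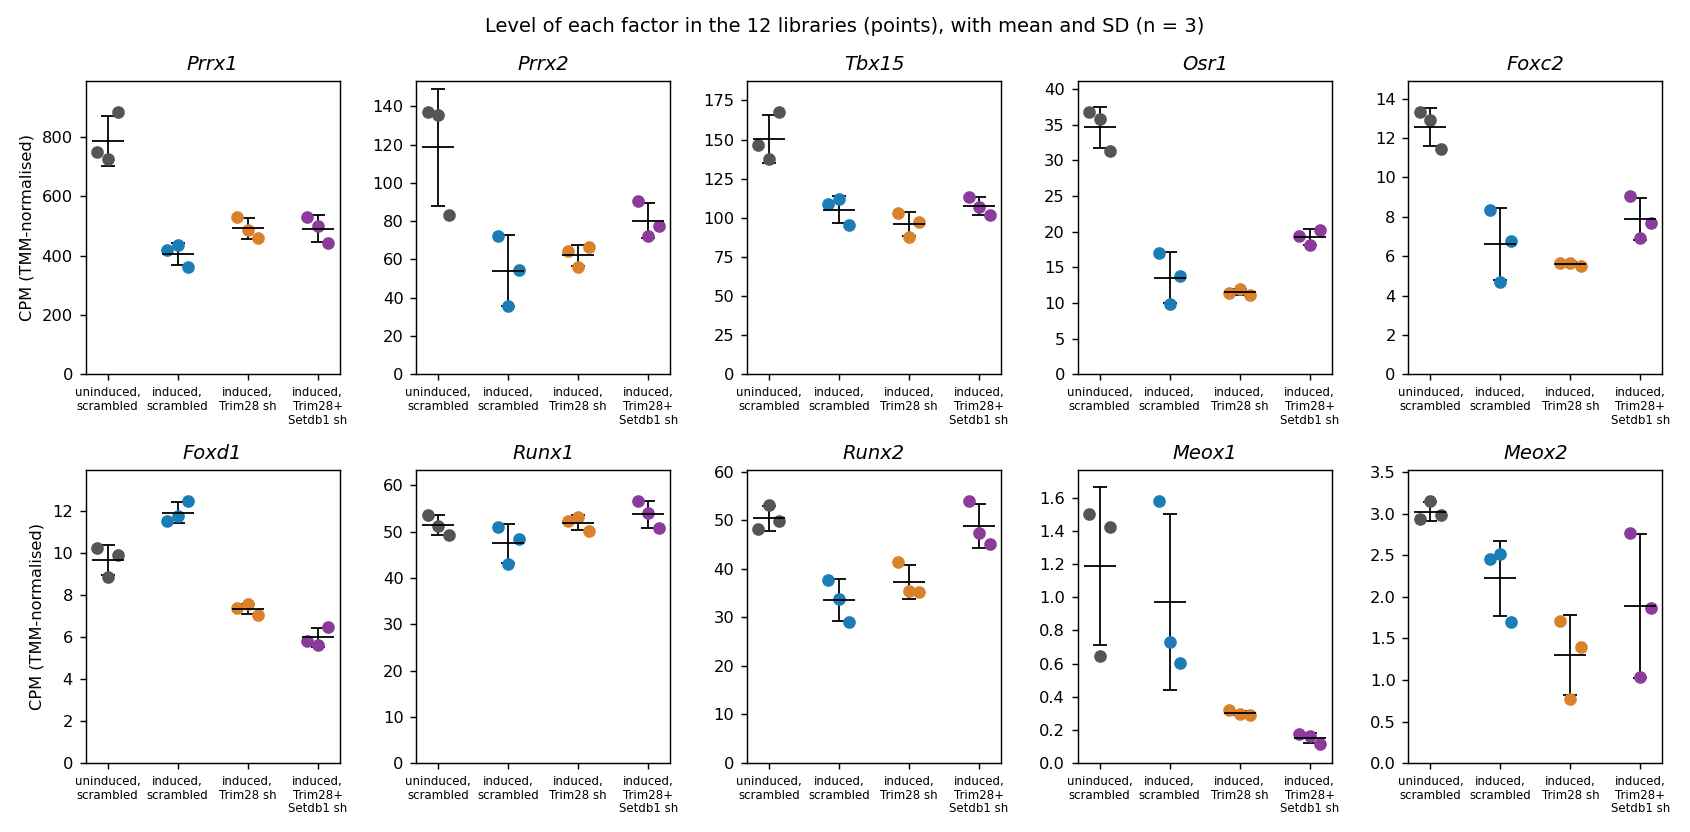
CPM (vertical axes, each from 0) of the 10 factors in the uninduced cells with a scrambled hairpin and in the 3 induced groups, where points are libraries and the bars give the mean and SD (n = 3). Prrx1 was highest in uninduced cells at 728 to 883 CPM, Runx1 ran between 42.9 and 56.6 CPM in all 12 libraries, and Foxd1 and Meox1 were lowest with both hairpins.

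Prrx1 and Prrx2 encode paired-related homeodomain proteins that act together in limb and craniofacial mesenchyme. Prrx1 (ENSMUSG00000026586, chromosome 1, 163245119 to 163313710, minus strand) is listed with these coordinates in the deposited table. For 8 of the 10 genes the listed start and end equal those of the GRCm38 annotation, although no source used here names the build of the table. Its upstream sequence is printed because Prrx1 was the factor with the highest level here. The 250 bases before the RefSeq start (chr1:163313651-163313900, minus strand, GRCm38.p6) overlap the gene as listed above by 60 bases, since the listed start lies further upstream, and they hold 1 match, in capitals, to the homeodomain core TAATTA, a motif found in 4.84% of 32851 such windows of all genes.
Prrx1 upstream: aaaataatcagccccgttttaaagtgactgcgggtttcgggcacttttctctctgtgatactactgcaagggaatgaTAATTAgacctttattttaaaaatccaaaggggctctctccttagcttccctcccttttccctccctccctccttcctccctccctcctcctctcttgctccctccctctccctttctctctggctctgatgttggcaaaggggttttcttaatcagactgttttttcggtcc

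Prrx1 read 750, 728 and 883 CPM in replicates 1 to 3 of the uninduced cells, and 419, 436 and 363 CPM in the induced controls. The groups did not overlap, and the induced controls stood at 51.6% of the uninduced mean. The fall, as log2 change ± SE with 3 libraries in each group, was -0.95 ± 0.093 (adjusted p = 1.61e-07). With the Trim28 hairpin Prrx1 read 531, 488 and 461 CPM, all above the induced controls, a rise of 0.28 ± 0.093 (adjusted p = 0.0357). With both hairpins it read 531, 500.1 and 442 CPM, again all above the induced controls, a rise of 0.27 ± 0.093 (adjusted p = 0.0296). The levels with 1 and with 2 hairpins differed by -0.01 on the log2 scale, with a 95% interval of -0.20 to 0.19, so no difference between these groups was detected. As the groups also differed in Trim28 and in the induced factors, the part of the Setdb1 hairpin cannot be told apart. Both rises are small and rest on few libraries. The rise with the Trim28 hairpin had adjusted p = 0.171 when induced control replicate 3 was left out, and 0.160 and 0.0889 without replicates 1 and 2 of the Trim28 hairpin. The rise with both hairpins had adjusted p = 0.155 without replicate 3 of the induced controls, 0.135 and 0.0823 without replicates 1 and 2 of both hairpins, and 0.0615 when libraries were scaled by total counts alone.

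Prrx2 (ENSMUSG00000039476, chromosome 2, 30834972 to 30881251) read 137, 136 and 83.3 CPM in uninduced cells and 72.3, 35.5 and 54.8 CPM in the induced controls. The groups did not overlap, but the spread was wide, with replicate 3 of the uninduced cells and replicate 2 of the induced controls low. The fall was -1.12 ± 0.20 (adjusted p = 0.000129). It read 64.2, 55.9 and 66.4 CPM with the Trim28 hairpin, inside the range of the induced controls (log2 0.19 ± 0.20, adjusted p = 0.551). With both hairpins Prrx2 read 90.5, 72.5 and 77.7 CPM, just above the highest induced control, a rise of 0.56 ± 0.20 (adjusted p = 0.0407). That call was lost in 7 of 14 alternative settings. Its adjusted p was 0.147 and 0.0954 without replicates 2 and 3 of the induced controls, and 0.139, 0.0519 and 0.0797 without replicates 1, 2 and 3 of both hairpins. DESeq2 gave 0.0913 and total-count scaling 0.0570. Without replicate 2 of the induced controls the rise was 0.33, against 0.56 with it. Prrx2 read higher with both hairpins than with the Trim28 hairpin in every library, by 0.37 ± 0.20, which did not pass (adjusted p = 0.209). It was called with no low-count filter (0.000356) and with only these groups in the fit (0.00487). The ratio of Prrx1 to Prrx2 counts within a library, which needs no scaling between libraries, ran from 2.42 to 3.41 on the log2 scale in uninduced cells and from 2.51 to 3.62 in the 9 induced libraries of all hairpins (difference 0.09, exact permutation test over 3 and 9 libraries, two-sided p = 0.745, smallest possible p 0.00909).

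Tbx15 (ENSMUSG00000027868, chromosome 3, 99240381 to 99354259), a T-box factor of skeletal and dermal mesenchyme, read 146, 138 and 167 CPM in uninduced cells and 109, 112 and 95.4 CPM in the induced controls. The groups did not overlap, and the fall was -0.52 ± 0.086 (adjusted p = 6.21e-05). In the hairpin groups Tbx15 overlapped the induced controls, at 103, 87.9 and 97.0 CPM with the Trim28 hairpin and 114, 107 and 102 CPM with both. Neither difference passed the test, at -0.13 ± 0.087 (adjusted p = 0.302, 95% interval -0.32 to 0.05) and 0.03 ± 0.086 (adjusted p = 0.810, -0.15 to 0.21). A change in Tbx15 of the size seen on induction lay outside both intervals.

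Osr1 (ENSMUSG00000048387, chromosome 12, 9574442 to 9581499), a zinc finger factor of lateral plate mesenchyme and connective tissue, had the lowest remaining share of the 10 genes in the induced controls, 39.1%. It read 36.7, 35.9 and 31.3 CPM in uninduced cells and 17.02, 9.88 and 13.8 CPM in the induced controls, a fall of -1.34 ± 0.13 (adjusted p = 2.36e-07). With the Trim28 hairpin it read 11.4, 12.002 and 11.1 CPM, inside the range of the controls (log2 -0.25 ± 0.15, adjusted p = 0.227). With both hairpins it read 19.4, 18.2 and 20.3 CPM, above every induced control and every Trim28 hairpin library but below every uninduced library. This was a rise of 0.49 ± 0.14 against the induced controls (adjusted p = 0.0113) and of 0.74 ± 0.14 against the Trim28 hairpin (adjusted p = 0.00141), and neither call was lost in any of 14 alternatives. Without replicate 2 of the induced controls, where Osr1 was lowest, the Trim28 hairpin group was called lower (-0.42, adjusted p = 0.0118).

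Foxc2 (ENSMUSG00000046714, chromosome 8, 121116171 to 121118895) is a single-exon forkhead gene of paraxial mesenchyme and lymphatic vessels. It read 13.3, 12.9 and 11.46 CPM in uninduced cells and 8.36, 4.70 and 6.76 CPM in the induced controls, a fall of -0.90 ± 0.16 (adjusted p = 0.000102). Its values were 5.65, 5.68 and 5.49 CPM with the Trim28 hairpin and 9.06, 6.94 and 7.71 CPM with both. Against the induced controls neither hairpin group passed the test, at -0.26 ± 0.17 (adjusted p = 0.301) and 0.23 ± 0.16 (adjusted p = 0.284). Without replicate 2 of those controls the Trim28 hairpin group was called lower (-0.44, adjusted p = 0.0423). The hairpin groups did not overlap each other, and Foxc2 was higher with both hairpins than with the Trim28 hairpin by 0.49 ± 0.17 (adjusted p = 0.0456). That call sits at the threshold and was lost in 8 of 14 alternatives. They were limma-voom (adjusted p = 0.0550), RLE factors (0.0525), total counts (0.0585), leaving out replicate 1, 2 or 3 of the Trim28 hairpin (0.0988, 0.117 and 0.126), and leaving out replicate 1 or 3 of both hairpins (0.193 and 0.0921). The paralog Foxc1, also a mesenchymal forkhead gene, fell from 59.2 ± 5.20 to 29.7 ± 2.69 CPM on induction (SD, n = 3, log2 -0.99, adjusted p = 5.1e-07) and read 30.3 and 29.7 CPM in the hairpin groups.

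Foxd1 (ENSMUSG00000078302, chromosome 13, 98354242 to 98356703), a forkhead gene of kidney stroma, went the other way. It read 10.2, 8.87 and 9.91 CPM in uninduced cells and 11.52, 11.7 and 12.46 CPM in the induced controls. The groups did not overlap, and the rise was 0.30 ± 0.11 (adjusted p = 0.0190). The rise was lost with adjusted p = 0.0899 without replicate 2 of the uninduced cells, 0.0690 without replicate 3 of the induced controls and 0.0726 with no low-count filter. Foxd1 then read 7.36, 7.57 and 7.06 CPM with the Trim28 hairpin and 5.83, 5.64 and 6.49 CPM with both, below every uninduced and every induced control library. The falls were -0.70 ± 0.11 (adjusted p = 0.000153) and -0.995 ± 0.11 (adjusted p = 4.22e-06) against the induced controls, and all 14 alternatives kept both calls. Foxd1 was the 1 factor that went above its fibroblast level on induction and below it with each hairpin set. Against uninduced cells the differences were -0.40 ± 0.11 (adjusted p = 0.00439) and -0.69 ± 0.11 (adjusted p = 6.02e-05). The step from 1 to 2 hairpins was -0.29 ± 0.12 (adjusted p = 0.0806).

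The RUNX genes encode DNA-binding subunits that work with a shared partner, Cbfb, and each has a distal and a proximal start. Gene counts merge the transcripts of both starts. The upstream windows of Runx1 and Runx2 are shown to set these starts side by side, with matches to the RUNX core TGTGGT, or ACCACA on the other strand, in capitals. This core was found in 14.0% of the windows of all genes. Of the 10 factors, 6 had a window in the RefSeq table (7 windows, Runx1 with 2 of them), and in the windows of Prrx2 and Foxd1 neither the homeodomain nor the RUNX core was found.
Runx1 distal upstream (chr16:92826075-92826324, minus strand): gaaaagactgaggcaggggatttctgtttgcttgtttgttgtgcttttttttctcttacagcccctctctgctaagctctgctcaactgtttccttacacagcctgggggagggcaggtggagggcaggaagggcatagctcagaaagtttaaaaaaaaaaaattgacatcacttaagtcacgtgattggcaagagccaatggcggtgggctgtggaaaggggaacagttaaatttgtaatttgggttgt
Runx1 proximal upstream (chr16:92697330-92697579, minus strand): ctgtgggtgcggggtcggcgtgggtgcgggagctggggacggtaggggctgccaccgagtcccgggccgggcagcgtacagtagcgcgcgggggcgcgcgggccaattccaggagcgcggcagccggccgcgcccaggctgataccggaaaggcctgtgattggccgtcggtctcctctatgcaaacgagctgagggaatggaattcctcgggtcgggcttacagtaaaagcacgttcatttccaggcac
Runx2 distal upstream (chr17:44814628-44814877, minus strand): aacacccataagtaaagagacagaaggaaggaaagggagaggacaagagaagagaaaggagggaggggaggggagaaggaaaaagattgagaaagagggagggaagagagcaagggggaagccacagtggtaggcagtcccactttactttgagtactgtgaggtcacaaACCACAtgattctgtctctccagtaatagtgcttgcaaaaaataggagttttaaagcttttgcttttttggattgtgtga
As the listed starts lie upstream of the RefSeq ones, 75 bases of the distal Runx1 window and 170 bases of the Runx2 window, its ACCACA included, fall inside the genes as listed. The proximal Runx1 window lies wholly inside the gene. The distal Runx1 window has 45.6% G and C and an observed-over-expected CpG ratio of 0.165, and the proximal window 67.6% and 0.978. Runx2 distal sequence has 44.8% G and C and no CpG at all, against a median ratio of 0.374 over all windows.

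Runx1 (ENSMUSG00000022952, chromosome 16, 92601466 to 92826149) varied least of the 10 factors between group means, from 92.3% to 105% of the uninduced mean. It read 53.7, 51.2 and 49.3 CPM in uninduced cells, and 51.0, 42.9 and 48.4 CPM in the induced controls. The groups overlapped, and the difference of -0.11 ± 0.076 did not pass the test (adjusted p = 0.207, 95% interval -0.27 to 0.05). That interval leaves room for a fall of about the size of its lower bound and none for the falls of Prrx1 or Osr1. With the Trim28 hairpin Runx1 read 52.4, 53.3 and 50.1 CPM, and with both hairpins 56.6, 54.0 and 50.8 CPM. Against the induced controls these were 0.13 ± 0.076 (adjusted p = 0.252) and 0.18 ± 0.076 (adjusted p = 0.0774), and the second was called a rise in 1 alternative, the fit that left out replicate 1 of the induced controls (0.22, adjusted p = 0.0453). Because Runx1 also marks blood cells, blood markers were read beside it. Their summed level (9 genes) was 5.57 to 5.98 CPM in uninduced cells, 60.5 to 69.8 in the induced controls, 59.4 to 67.9 with the Trim28 hairpin and 46.0 to 54.9 with both. Of the 9 genes 4 were tested, and all 4 were called higher on induction. Laptm5 and Itgam, with 3 to 5 and 3 to 11 reads per uninduced library, passed the low-count filter through the induced groups. A rise was thus nearly fixed for them, and the 4 calls cannot be weighed against the 32.7% of all tested genes called higher. Laptm5 went from 0.276 to 42.4 CPM, Itgam from 0.406 to 7.47, Cd68 from 3.13 to 11.4 and Csf1r from 1.51 to 2.37. Ptprc, Spi1 and Tyrobp, which did not pass the filter, read 0.212, 0.0646 and 0.213 CPM in uninduced cells. In the induced controls they read 0.385 ± 0.0301, 0.177 ± 0.151 and 0.0965 ± 0.0478 CPM, so Tyrobp went the other way. Gata1 and Tal1 were at 0 reads in uninduced cells and at 0.290 and 0.149 CPM in the induced controls. Whether blood cells were present, and their part in the level of Runx1, was not tested.

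Runx2 (ENSMUSG00000039153, chromosome 17, 44495987 to 44814797) read 48.2, 53.1 and 49.7 CPM in uninduced cells and 37.7, 33.8 and 29.1 CPM in the induced controls. The groups did not overlap, and the fall was -0.59 ± 0.10 (adjusted p = 7.78e-05). It stood at 41.3, 35.4 and 35.2 CPM with the Trim28 hairpin (0.16 ± 0.10 against the induced controls, adjusted p = 0.293). With both hairpins it read 53.9, 47.4 and 45.2 CPM, overlapping the uninduced cells and above every library of the other 2 induced groups. The rise against the induced controls was 0.55 ± 0.10 (adjusted p = 0.000511) and no alternative ended it. Against uninduced cells the difference was -0.04 ± 0.098 (adjusted p = 0.716, 95% interval -0.25 to 0.16), so a remaining fall as large as that of the induced controls lay outside the interval. Between both hairpins and the Trim28 hairpin the difference was 0.39 ± 0.099 (adjusted p = 0.0107). It had adjusted p = 0.0599 and 0.0562 without replicates 2 and 3 of the Trim28 hairpin, and 0.0679 without replicate 1 of both hairpins. Strand use in counting is not stated, and Runx2 shares exon sequence with an antisense gene, Runx2os1. Runx1 shares 106 bases with the antisense gene Gm26626. The log2 ratio of Runx1 to Runx2 counts was -0.05 to 0.16 in uninduced cells and 0.07 to 0.73 in the 9 induced libraries. The difference of 0.35, with the 3 hairpin groups pooled, had an exact permutation p = 0.0182 (two-sided, adjusted p = 0.0545 over 3 gene pairs), which does not pass the threshold. The ratios overlapped only through replicate 1 of both hairpins (0.07). They were 0.35 to 0.73 in the induced controls and 0.34 to 0.59 with the Trim28 hairpin, above every uninduced library.

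Meox1 and Meox2 are homeobox genes of the somites and were the least abundant of the set. The upstream window of Meox2 (chr12:37108290-37108539, plus strand) is given because it was the 1 window among the 7 with 2 matches to the RUNX core, shown in capitals.
Meox2 upstream: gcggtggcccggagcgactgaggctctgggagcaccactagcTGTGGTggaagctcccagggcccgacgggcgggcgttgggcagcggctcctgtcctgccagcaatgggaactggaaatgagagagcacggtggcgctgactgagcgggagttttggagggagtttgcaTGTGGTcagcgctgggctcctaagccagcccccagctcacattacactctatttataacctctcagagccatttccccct

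Meox1 (ENSMUSG00000001493, chromosome 11, 101877510 to 101894374) had 24, 10 and 22 reads in uninduced cells, 27, 9 and 12 in the induced controls, 5, 5 and 5 with the Trim28 hairpin and 3, 3 and 2 with both. Uninduced cells and induced controls overlapped (log2 -0.29 ± 0.36, adjusted p = 0.498), and both hairpin groups lay below all libraries of both. In CPM the induced controls were at 0.970 ± 0.531 (SD, n = 3), the Trim28 hairpin at 0.302 ± 0.0138 and both hairpins at 0.152 ± 0.0312. The falls against the induced controls were -1.67 ± 0.47 (adjusted p = 0.0162) and -2.62 ± 0.54 (adjusted p = 0.00127), the largest among the 10 factors in each comparison. With the Trim28 hairpin the fall lost its call when replicate 1 of the induced controls was left out, at -1.11 and adjusted p = 0.103. Leaving out replicate 2 or 3 of the hairpin group gave adjusted p = 0.0536 and 0.0511. With both hairpins the call held in all 13 alternatives that tested Meox1. The step between 1 and 2 hairpins, from 15 to 8 reads in all, did not pass (-0.95 ± 0.69, adjusted p = 0.356).

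Meox2 (ENSMUSG00000036144, chromosome 12, 37108540 to 37179534) had 47, 49 and 46 reads in uninduced cells, 42, 31 and 34 in the induced controls, 27, 13 and 24 with the Trim28 hairpin and 47, 19 and 32 with both. Scaled to CPM, uninduced cells and induced controls did not overlap, at 3.02 ± 0.114 and 2.22 ± 0.452 (SD, n = 3), but the difference of -0.47 ± 0.29 did not pass the test (adjusted p = 0.168, 95% interval -1.08 to 0.15). Against the induced controls the Trim28 hairpin group stood at -0.76 ± 0.33 (adjusted p = 0.105) and both hairpins at -0.22 ± 0.31 (adjusted p = 0.601). None of these Meox2 differences passed in the main fit, and how far the low read numbers limited them was not tested. Among the alternatives, only a fall with the Trim28 hairpin was called, when no low-count filter was used (adjusted p = 0.0249). Against uninduced cells, Meox2 was lower with the Trim28 hairpin (-1.23 ± 0.31, adjusted p = 0.00263).

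**Figure D2:**
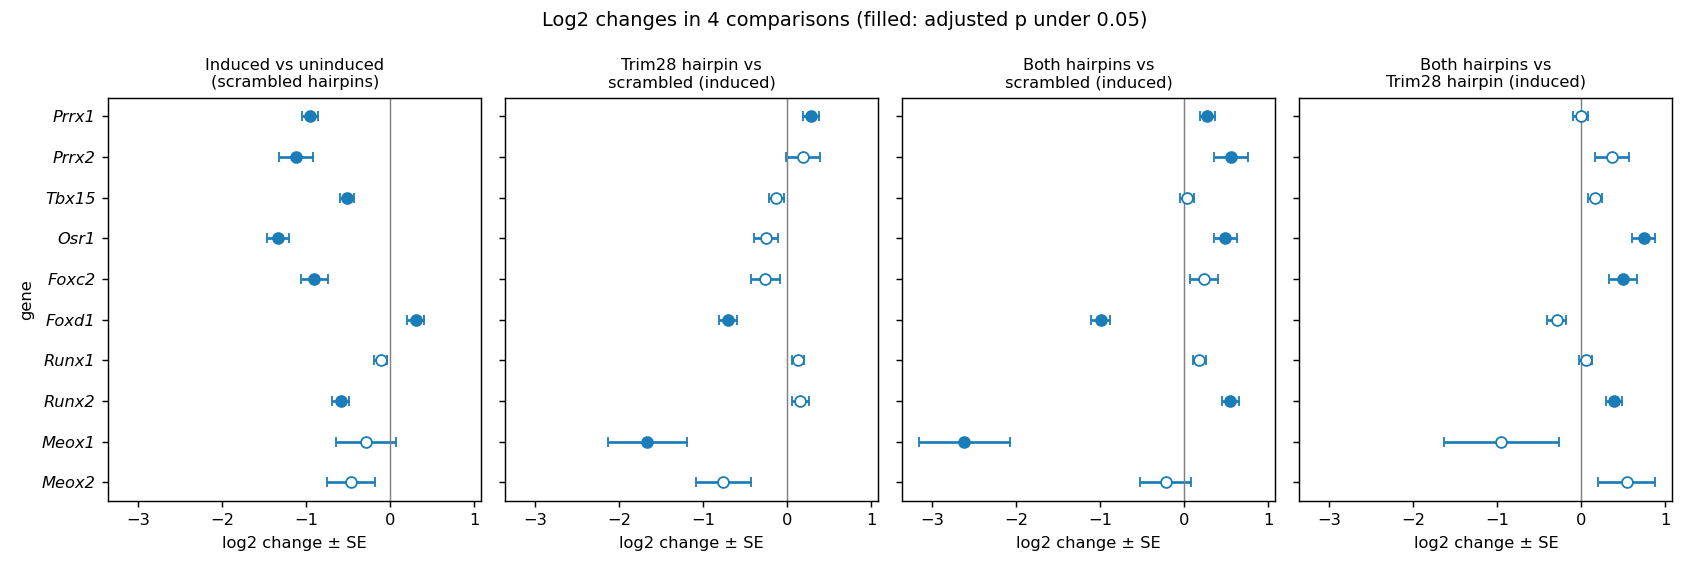
Log2 change (horizontal axis, ± SE) of the 10 factors in 4 comparisons, with filled points at adjusted p under 0.05. Foxd1 lies at 0.30 on induction and at -0.70 and -0.995 with the hairpins, opposite to Prrx1, and Runx1 lies near 0 in all 4 comparisons.

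Of the 10 factors, 1 rose (Prrx1), 2 fell (Foxd1 and Meox1) and 7 did not pass with the Trim28 hairpin, where 13.1% of all tested genes were called higher and 11.8% lower. With both hairpins 4 rose (Prrx1, Prrx2, Osr1 and Runx2), 2 fell (Foxd1 and Meox1) and 4 did not pass, where 18.1% of all tested genes were called higher and 18.5% lower. Both comparisons share the induced control libraries with each other and with the comparison on induction. The direct comparison of both hairpins with the Trim28 hairpin called 3 factors higher (Osr1, Runx2 and Foxc2) and none lower by edgeR, DESeq2 or limma-voom, where 10% of all tested genes were called higher and 11.7% lower. At an unadjusted p under 0.05, 1 factor was lower there, Foxd1. Median log2 changes of the 10 factors were -0.19, 0.21 and 0.26 in these 3 comparisons, against medians of all tested genes between -0.002 and 0.004. The count with the Trim28 hairpin was 5 without replicate 2 of the induced controls and 1 without replicate 2 of the Trim28 hairpin. The count between hairpin groups was 1 without replicate 2 or 3 of the Trim28 hairpin, or replicate 1 of both hairpins.

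Set against uninduced fibroblasts, whose libraries also served on induction, most factors were lower in both hairpin groups. With the Trim28 hairpin 9 of 10 were lower and Runx1 did not pass, where 32.6% of all tested genes were called lower and 34.1% higher. With both hairpins 7 of 10 were lower, and Runx1, Runx2 and Meox2 did not pass, where 27.2% of all tested genes were called lower and 31.6% higher. Remaining shares of the uninduced mean ran from 25.4% (Meox1) to 101% (Runx1) with the Trim28 hairpin. They ran from 12.8% (Meox1) to 105% (Runx1) with both hairpins, and from 39.1% (Osr1) to 123% (Foxd1) in the induced controls. Prrx2 with both hairpins (-0.56 ± 0.20, adjusted p = 0.0217) overlapped the uninduced libraries, and its call was lost with DESeq2 (adjusted p = 0.0554). It was also lost without replicate 1 or 2 of the uninduced cells (0.0922 and 0.0895) and without replicate 2 or 3 of both hairpins (0.0794 and 0.0611). Meox2 with both hairpins stood at -0.69 ± 0.29 (adjusted p = 0.0534) and was called lower in 5 of 13 alternatives, among them the fit without replicate 1 of both hairpins (-1.07, adjusted p = 0.00737).

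**Figure D3:**
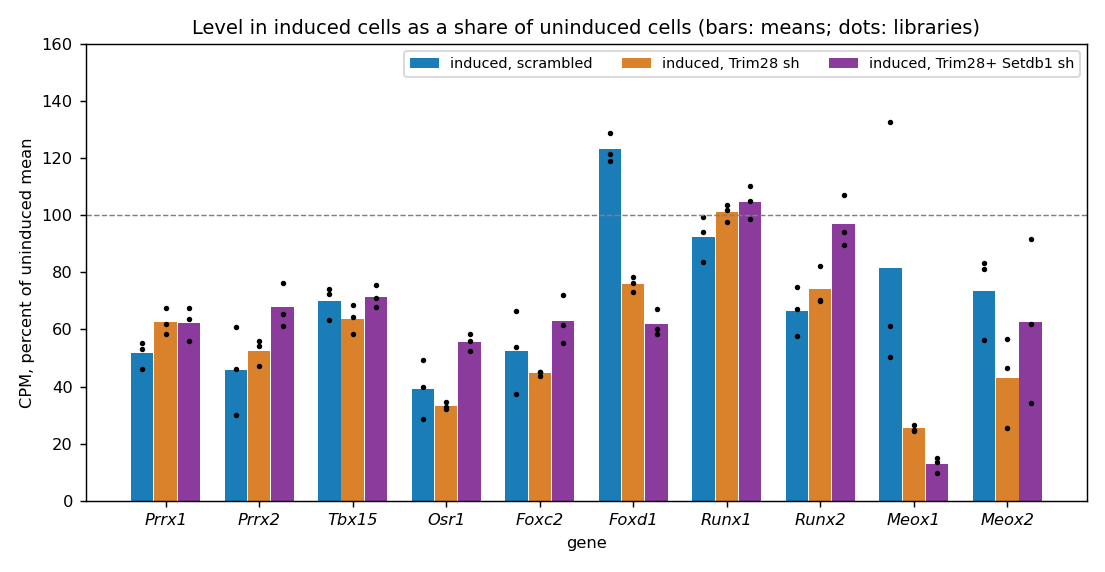
Mean CPM of each factor in the 3 induced groups as a percent of the uninduced mean (vertical axis, from 0), with libraries as dots and the dashed line at 100%. Osr1 is at 39.1%, 33.2% and 55.6% in the 3 groups, and Runx2 reaches 97.0% with both hairpins.

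Levels can be ordered between genes only per length, here as CPM per kilobase of annotated exon (GENCODE M21, GRCm38). In uninduced cells Prrx1 (71.1 ± 7.61, SD, n = 3) and Prrx2 (60.4 ± 15.6) came first and overlapped, and Tbx15 (40.1 ± 4.08) overlapped the lowest Prrx2 library. Osr1 (16.8 ± 1.42) followed, then Runx2 (5.70 ± 0.283), and then Foxc2 (4.61 ± 0.357) and Runx1 (4.28 ± 0.183), which overlapped. On these lengths Foxd1 (1.91 ± 0.141), Meox2 (1.28 ± 0.0482) and Meox1 (0.534 ± 0.213) came last without overlap. For Foxd1 the annotation used for the length (5064 bases) ends at 98359305, beyond the deposited end at 98356703, so its value per kilobase is understated. Its place below Foxc2 and Runx1 is therefore not settled. For Osr1 that annotation starts at 9570116, before the deposited start, so the Osr1 value may be understated too. In the induced controls the same 3 genes led, Prrx1 at 36.7 ± 3.43, Tbx15 at 28.1 ± 2.32 and Prrx2 at 27.6 ± 9.40, and Foxc2 had moved below Runx1 (2.42 ± 0.674 against 3.95 ± 0.344).

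Beside the 10 factors stands a list of 39 other mesenchyme factors, of which 37 were tested. On induction 29 fell and 8 did not pass, with a median of -0.79, where 32.7% of all tested genes were called lower. The number lower was 25 to 32 over 14 alternatives. None rose by edgeR, DESeq2 or limma-voom, and 0 were higher at an unadjusted p under 0.05. Twist1 and Twist2, helix-loop-helix factors of mesenchyme, fell from 52.8 ± 1.87 to 35.3 ± 4.23 CPM and from 37.3 ± 3.97 to 18.1 ± 5.54 CPM (SD, n = 3). Snai2, Zeb1 and Zeb2, repressors of epithelial genes, changed by log2 -1.01, -0.75 and -1.01 (adjusted p = 4.48e-07, 1.56e-07 and 1.14e-07). The largest fall of the list was in the homeobox gene Alx1 (-1.78 ± 0.27). With the Trim28 hairpin 4 rose and 5 fell of the 37, near the shares of all tested genes given above (13.1% higher, 11.8% lower). Twist1 rose (0.31 ± 0.086, adjusted p = 0.0137) while Snai2 and Zeb1 fell (-0.60 and -0.24, adjusted p = 0.000961 and 0.0231). With both hairpins 9 rose and 4 fell, where 18.1% of all tested genes were called higher and 18.5% lower. Twist1 and Twist2 then stood at 54.8 ± 2.14 and 37.1 ± 2.39 CPM, rises of 0.63 ± 0.085 and 1.02 ± 0.16 against the induced controls (adjusted p = 3.16e-05 and 0.000119). Compared with the Trim28 hairpin, 7 were higher with both hairpins, where 10% of all tested genes were called higher and 11.7% lower. Among the 7 were Twist1, Twist2, Snai2, Zeb1 and Zeb2. None of the 37 was called lower in the main edgeR fit, and 0 to 1 were over 14 alternatives. At an unadjusted p under 0.05 in the main fit, 1 was lower.

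Among the fibroblast markers, 8 of 12 fell, 2 rose and 2 did not pass on induction, with a median of -0.56. Of all tested genes 32.7% were called higher and 32.7% lower on induction. Against the induced controls, 3 rose and 6 fell with the Trim28 hairpin (median -0.29), beside 13.1% and 11.8% of all tested genes. With both hairpins 3 rose and 4 fell against the induced controls, beside 18.1% and 18.5% of all tested genes. Against the Trim28 hairpin 6 rose, where 10% of all tested genes were called higher and 11.7% lower. None of the markers fell there by edgeR, DESeq2 or limma-voom, and 0 were lower at an unadjusted p under 0.05. All 8 epithelial markers rose on induction, from a summed 8.24 to 9.52 CPM in uninduced cells to 2074 to 2527 CPM in the induced controls, and 7 of 8 were lower with both hairpins (1266 to 1547 CPM) than in the induced controls, and also 7 of 8 than with the Trim28 hairpin. The part of such a shift in cell make-up in the factor levels was not tested. Endothelial markers rose in 5 and fell in 2 of 8 tested on induction, and of the muscle markers only Des passed the filter on low counts, at 9.38 ± 0.404 CPM in uninduced cells and 2.12 ± 0.493 in the induced controls. Epithelial and endothelial markers near 0 in uninduced cells, such as Epcam (1 to 2 reads per library) and Tie1 (0), passed that filter only through the induced groups. For these a rise was nearly fixed.

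**Figure D4:**
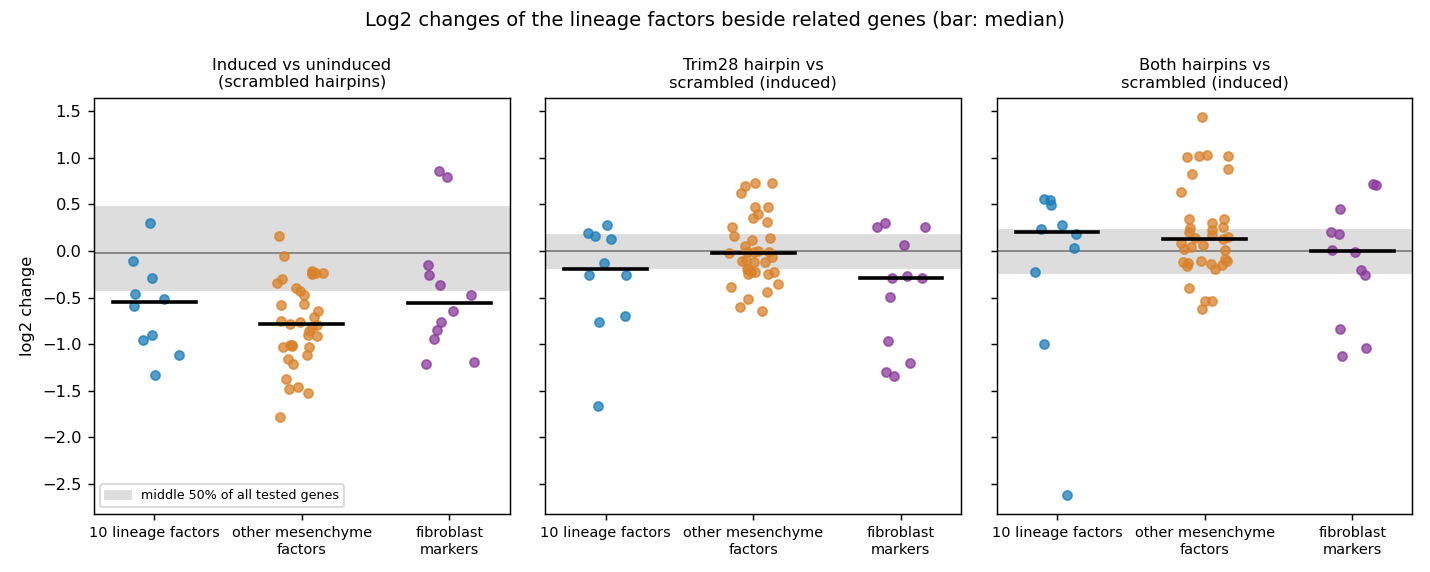
Log2 change (vertical axis) of the 10 factors, 37 other mesenchyme factors and 12 fibroblast markers in 3 comparisons, where points are genes, black bars medians and the grey band the middle 50% of all tested genes. On induction the medians are -0.55, -0.79 and -0.56, all below the median of all tested genes.

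Genes that work with or below the RUNX factors moved in both directions on induction, as did all tested genes (32.7% called higher, 32.7% lower). Cbfb, the shared RUNX partner, fell from 135 ± 9.93 to 116 ± 6.97 CPM on induction (-0.22 ± 0.067, adjusted p = 0.0092) and the corepressor gene Tle3 rose (0.45 ± 0.10, adjusted p = 0.00107). Of 8 RUNX partners 3 rose and 5 fell on induction. Runx3, the third family member, fell from 5.19 ± 0.353 to 3.74 ± 0.462 CPM (-0.47 ± 0.15, adjusted p = 0.0097). Of 13 osteoblast genes, 8 were tested, and 3 rose and 4 fell on induction. The bone factor Sp7, which acts after Runx2, fell from 2.72 ± 0.603 to 0.926 ± 0.0310 CPM (-1.54 ± 0.29, adjusted p = 0.000195) and did not pass with both hairpins (0.62 ± 0.32, adjusted p = 0.139), where Runx2 rose. Alpl, an alkaline phosphatase gene also active in stem cells, rose on induction (4.60 ± 0.19, adjusted p = 2.3e-12). Spp1, osteopontin, fell by 0.20 on the log2 scale (adjusted p = 0.0291). Of 8 somite factors 4 were tested. Pax1, a sclerotome factor, fell on induction (-1.16 ± 0.20, adjusted p = 9.03e-05) and Pax9 did not pass (0.16 ± 0.15, adjusted p = 0.359). Of 8 paralogs of the factors 5 were tested. On induction 3 of these fell (Foxc1, Runx3 and Tbx18), and Osr2, the paralog of Osr1, did not pass (0.35 ± 0.23, adjusted p = 0.192). With both hairpins Osr2 fell (-1.16 ± 0.25, adjusted p = 0.00153), where Osr1 rose.

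Over the 12 libraries, the profiles most like that of Prrx1 among 13220 named genes were those of Hs6st2, Cpd, Pvt1, Tlr4 and Acadsb (Pearson r of log2 CPM 0.987, 0.987, 0.986, 0.983 and 0.982). For Tbx15 they were Prkacb, Casc4, Il13ra1, Chpt1 and Dnajc18 (0.990, 0.985, 0.984, 0.983 and 0.979). For Runx1, with its narrow range, they were Sdc1, Ppp2r3d, Irf2bpl, Csnk1g2 and Zbtb22 (0.938, 0.936, 0.927, 0.927 and 0.926). All these points share the same libraries, and most of the spread in Prrx1 and Tbx15 lies between uninduced and induced cells.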

How the data were processed

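Whole-number read counts per gene for 12 libraries were used as the authors deposited them. The submitters' processing notes name TopHat2 2.0.12, Bowtie 1.1 and HTSeq (no version). The genome build and strand setting are not given in the sources used here. Columns were matched to samples through the hairpin, doxycycline and replicate names in the header and titles. The main test was the quasi-likelihood F-test of edgeR 4.0.16 (R 4.3.3) with TMM factors and 1 term per group over all 12 libraries. The filter on low counts was filterByExpr (minimum count 10, minimum total 15), and p-values were adjusted over the 14520 genes left by the Benjamini-Hochberg method. SE and 95% intervals come from that model. The ratio of paralog counts used a pseudocount of 0.5. Pairs of libraries within a group had chi-square values of 1.90 to 17.5 per degree of freedom, above sampling noise, and each library counted as 1 sample. Between induced controls and both hairpins the 3 same-numbered pairs had correlated deviations (r = 0.141 to 0.310), a pairing read from the data and not stated in the labels. Alternatives were DESeq2 1.42.0, limma-voom (limma 3.58.1), RLE factors, total counts alone, no filter, a minimum count of 50, only the groups compared, a replicate block and leaving out each library. The gene lists were tried under the same settings after seeing the data. Named genes are the 10 factors, related genes fixed by name, the largest rise or fall called in a list (1 such gene is not reported here), and the 5 profiles most like those of Prrx1, Runx1 and Tbx15. Names chosen outside this rule after values were seen are Des and the markers named with their list. The 10 factors and all lists were chosen with earlier results of these data known. Promoter windows are from RefSeq (GRCm38.p6).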

Additional observations from a re-analysis of the deposited data

Results flagged for a closer look

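A difference between the 2 hairpin groups was tested directly for each of the 10 factors, and 3 passed, where 10% of all tested genes were called higher and 11.7% lower. Relative to the Trim28 hairpin alone, Osr1 was higher with both hairpins by 0.74 on the log2 scale, Runx2 by 0.39 and Foxc2 by 0.49 (edgeR adjusted p = 0.00141, 0.0107 and 0.0456). The Foxc2 call was lost in 8 of 14 alternatives and the Runx2 call in 3. All libraries with both hairpins lay above all libraries with the Trim28 hairpin for 4 of the 10 factors, these 3 and Prrx2. They lay below for 2, Foxd1 and Meox1. The share of all tested genes without overlap was not counted. Fibroblast markers moved the same way between these groups, with 6 of 12 higher and none lower by edgeR, DESeq2 or limma-voom (0 at an unadjusted p under 0.05), and Trim28 itself was higher by 0.82 with both hairpins. Of 8 epithelial markers 7 were lower (median -0.72), and the induced factors Pou5f1, Sox2, Klf4 and Myc were lower by log2 changes of -0.65, -0.78, -0.62 and -0.53. The part of these in the differences was not tested. Groups of 3 are too small for a search for single libraries that stand apart.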

How the results depend on the processing

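Of 60 results for single factors, 38 kept their direction and side of the threshold in every alternative. Of 827 values, 36 lost a call, 11 gained one and 13 changed sign, none of the last being called. Total-count scaling gave 0.018 for Runx1 on induction, -0.021 for Tbx15 with both hairpins and 0.035 for Runx2 with both hairpins against uninduced cells. It moved the median of all genes on induction to 0.11 and the share of calls that were higher from 50.01% to 61.7%, and with both hairpins from 49.5% to 39.2%. Leaving out single libraries gave -0.85 to 0.021 for Meox1 on induction, -0.038 to 0.43 for Prrx2 with the Trim28 hairpin, -0.045 to 0.063 for Tbx15 and -0.60 to 0.075 for Meox2 with both hairpins. It gave -0.067 to 0.061 for Prrx1 between the hairpin groups, -0.016 to 0.046 for Runx1 with the Trim28 hairpin against uninduced cells, and -0.12 to 0.0019 for Runx2 with both hairpins against them. With a library left out, factors called ran from 1 to 5 with the Trim28 hairpin and from 1 to 3 between the hairpin groups, where 4 were called with no filter or with only these groups. Between those groups 3154 genes were called, 1829 to 2843 with a library left out (1829 and 2063 without replicates 2 and 3 of the Trim28 hairpin, 1853 without replicate 1 of both hairpins) and 4849 with only these groups in the fit. With a library left out, differences in log2 paralog ratios ran from -0.075 to 0.42 for Prrx1 to Prrx2, 0.30 to 0.41 for Runx1 to Runx2 (adjusted p = 0.0364 without replicate 1 of both hairpins) and -1.17 to -0.53 for Meox1 to Meox2. With the induced controls alone the last 2 were 0.48 and 0.14. Over all 12 libraries the Meox1 to Meox2 difference was -0.76 and did not pass (exact permutation test, p = 0.273, adjusted p = 0.409). The causes were not tested. Same-numbered libraries deviated together with r over 0.1 in 6 of 18 pairs (20 of 36 best matches with the own number), including all 3 between induced controls and both hairpins. Values of r were also positive between induced controls and Trim28 hairpin (0.061 to 0.159) and between the hairpin groups (0.032 to 0.191). Pairs with uninduced cells ran from -0.224 to 0.210. Whether the numbers mark shared cultures is not settled by these values. The replicate block gave 9572, 3864, 5537 and 3399 called genes in the 4 main comparisons (9484, 3620, 5322 and 3154 without it), and 7, 3, 6 and 3 factors. It changed 1 factor's call, Meox2 with both hairpins against uninduced cells (adjusted p = 0.0347). Depth limits Meox1 and Meox2, with 2 to 49 reads per library.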

Other observations

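Some factors shared the same low libraries. Replicate 2 of the induced controls had the lowest values of its group for Prrx2, Osr1 and Foxc2 (35.5, 9.88 and 4.70 CPM) and the highest for Prrx1 and Tbx15 (436 and 112 CPM). Replicate 3 of the uninduced cells was likewise lowest for Prrx2, Osr1 and Foxc2 (83.3, 31.3 and 11.46 CPM) and highest for Prrx1 and Tbx15 (883 and 167 CPM). These 2 libraries had the highest mitochondrial shares, 2.37% and 2.27%. Over the 12 libraries Osr1 and Foxc2 had r = 0.979 and Prrx2 and Foxc2 r = 0.905, while Prrx1 and Tbx15 had r = 0.882 and Runx1 and Foxd1 r = -0.648. These correlations share libraries and group differences and are given as description.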
